A study of Paraphaeosphaeria sporulosa with 23 samples.

Results

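Paraphaeosphaeria sporulosa AP3s5-JAC2a is a filamentous ascomycete, and its control cultures were compared 1 day apart without any selenite. The comparison sets 6 libraries titled as controls of day 1 against 3 libraries titled as controls of day 0, which is 9 of the 23 libraries of the study, across 15164 genes. Homogenised mycelium from a preculture of 14 days was inoculated into still flasks of liquid medium and grown for 18 days, and the moment at which the other cultures received selenite was counted as day 0. The other groups were 5 controls of day 6 and selenite cultures (0.1 mM) of day 1 (5 libraries) and day 6 (4 libraries). All 9 libraries came from the same strain, medium and kit, and the labels give every library the same batch. Whether replicates were separate flasks is not in the labels, and the spread behind each p-value may therefore be technical in part. The labels also do not say whether control flasks were opened or handled at day 0. Any such handling cannot be told apart here from 1 day of growth.

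Filamentous fungi grow as a mat of branching hyphae that ages from its tips backwards, so RNA of a whole culture mixes young and old cells. In such bulk samples, fewer cells of a kind and less RNA per cell cannot be told apart. Genes of a single fungal pathway for a secondary metabolite or a nutrient often lie side by side on a chromosome and are often transcribed together, and neighbours that point away from each other share the DNA between their starts. The files pair genes with locus tags and positions but with no product names, so genes are described here by position, structure, level and neighbours, and no function is given to any of them.

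Depth was 26164556 to 32678632 reads in genes over the 9 libraries, and total reads did not separate the days (28773588 ± 519512, SD, n = 3, at day 0 and 28959876 ± 2709157, n = 6, at day 1; exact two-sided permutation p = 0.881). Levels are given as scaled CPM, CPM (reads scaled to a common total in genes) divided by a composition factor (TMM) per library. That factor was 1.03 to 1.55 at day 0 and 0.775 to 0.908 at day 1, with no overlap, so every direction below is relative to it. In a principal component analysis of the 9 libraries, the first component held 47.2% of the variance and placed day 0 at −80.4 to −68.4 and day 1 at 14.1 to 50.5. The second held 21.8% and placed day 1 replicate 1 at 79.0, the other day 1 libraries between −42.2 and 18.8, and day 0 replicate 1 at 19.5 against −20.3 and −23.6 for the other two. Day 0 replicate 1 and day 1 replicate 1 therefore stood apart from their groups, and the main counts are also given without them, an alternative chosen after seeing the data.

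A large part of the measured transcriptome differed between the days. Of 13676 genes tested, 3802 (27.8%) passed a Benjamini-Hochberg adjusted p of 0.05 in limma, with 2053 (15.0%) higher and 1749 (12.8%) lower at day 1. At least 2-fold changes were called for 1425 genes upwards (10.4%) and 1186 downwards (8.67%). With the TMM factor, large changes ran mostly upwards: 405 genes rose and 198 fell at least 4-fold. At least 8-fold changes were 115 rises and 14 falls, and at least 16-fold changes 38 and 1. Counts of these sizes are not given for the other scalings. The pseudocount of 0.5 added before the log also limits how far a gene of low day 0 level can fall. All 6 day 1 libraries lay on 1 side of all 3 day 0 libraries for 1727 of the called rises (12.6% of genes tested) and 1312 of the called falls (9.59%), and over all tested genes, called or not, 3671 (26.8%) did not overlap. The quartiles of the log2 fold change over all tested genes were −0.52 and 0.46, with a median of −0.02.

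The balance of rises and falls depended on the scaling. With library size alone, 1009 genes were higher (7.38%) and 4163 lower (30.4%), so 19.5% of calls were rises against 54.0% with TMM, and the median log2 fold change moved to −0.41. With the size factors of DESeq2 the share was 51.2%. Of the 2053 called rises, 2007 kept their direction in all 3 scalings and 1008 were also called higher with library size alone. All 1749 called falls were also called lower with library size alone. Without day 0 replicate 1 there were 2958 calls, without day 1 replicate 1 there were 4022, and without both there were 3134 (2402 of them at least 2-fold), of which 2844 were among the 3802 and had the same direction. Without both, 1730 genes were higher and 1404 lower, 415 and 247 of them at least 4-fold and 122 and 31 at least 8-fold, so there were more falls of that size than with all libraries. The remaining 5 and 2 libraries did not overlap for 1697 of these rises and 1374 of these falls, where fewer libraries overlap less easily.

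**Figure D1:**
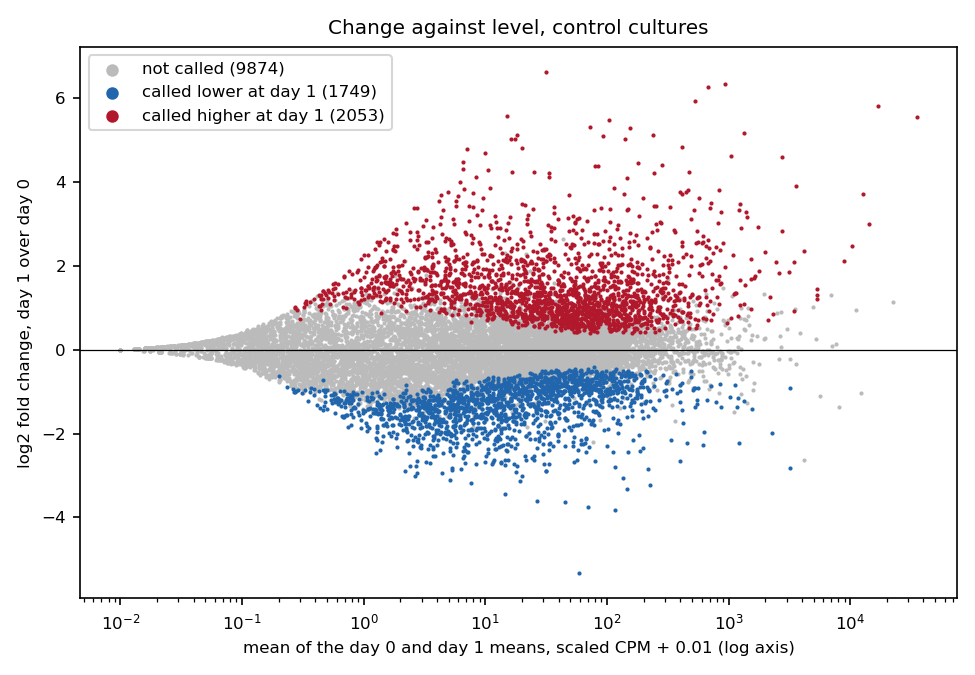
Log2 fold change from day 0 to day 1 (y axis) against the mean level of each of the 13676 tested genes (x axis), with the 2053 called rises and 1749 called falls coloured. The cloud centres near 0 with the TMM factor, and its upper edge reaches farther from 0 than its lower edge, with 115 rises and 14 falls of at least 8-fold.

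The most abundant genes took a larger share of reads in each day 1 library than in any day 0 library, though the difference missed the threshold after adjustment. The 10 genes with most reads in each library took 11.3% ± 4.54 (SD, n = 3) of reads at day 0 and 19.96% ± 2.76 (n = 6) at day 1, and the 100 genes with most reads took 30.4% ± 5.86 and 41.2% ± 2.83. Genes at 1 CPM or more numbered 10751 ± 367 at day 0 and 10134 ± 216 at day 1. Each of the first 2 differences had an exact two-sided permutation p of 0.0238, the smallest that 3 against 6 libraries allow. After adjustment over 5 summaries it was 0.0595. The third had 0.0476 and 0.0794, so none passed after adjustment. By themselves, 2 of 5 summaries at the smallest p cannot go below 0.0595, so this miss says little about the size of those differences. With genes counted at 5 CPM or more in place of 1 CPM, 3 of the 5 summaries had the smallest p, and each of these 3 then had an exact permutation p of 0.0397 after adjustment. Genes without a read numbered 2703 ± 36.2 and 2783 ± 258 (exact permutation p = 0.643, adjusted 0.804).

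Genes chosen by this contrast give the size of the shift in reads, as a description. The 115 genes that rose at least 8-fold held 1.34% ± 0.20 of reads at day 0 and 17.1% ± 2.55 at day 1. The 1425 genes called at least 2-fold higher held 11.6% ± 0.15 and 39.9% ± 2.73, and the 1186 called at least 2-fold lower held 8.58% ± 0.41 and 1.96% ± 0.35. Rises on these lists thus carried far more reads at day 1 than the listed falls had carried at day 0. The lists were called with the TMM factor, while shares of reads hold no such factor. The listed rises gained more of the reads than the listed falls lost, so genes outside both lists lost share as well. With library size alone, 1009 genes were called higher and 4163 lower.

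The 8 largest rises among genes whose libraries did not overlap, and that kept their direction in all 3 scalings, spanned log2 fold changes of 5.47 to 6.62, and the next gene outside this list had 5.30. They lay on 6 scaffolds and held 1 to 5 exons. Some were nearly without reads at day 0 and others were already abundant. All 8 were called in each of 20 alternative settings.

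CC84DRAFT_1207412 (NW_017253366.1, 2319233 to 2320776, minus strand, 4 exons) was nearly silent at day 0, with 0, 0 and 0.413 scaled CPM in the 3 libraries, which is 12 reads in all. At day 1 it had 32.4 to 88.0 (median 59.9) in the 6 libraries. Its log2 fold change of 6.62 ± 0.51 (SE) had a limma adjusted p of 1.44e-09, and with so few day 0 reads the value rests on the pseudocount and ran from 4.85 to 8.97 over the alternatives. The gene was thus detected in 1 day 0 library and in every day 1 library.

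CC84DRAFT_1203498 and CC84DRAFT_1162029 lie close together on the plus strand of NW_017253362.1 (573261 to 575820, 5 exons, and 582259 to 583614, 3 exons). The former had 38.5, 14.4 and 18.6 scaled CPM at day 0 and 1057 to 2556 (median 1919.5) at day 1, a log2 change of 6.33 ± 0.38 (adjusted p in limma 4.67e-11). The latter had 0.270, 0 and 0.138 at day 0, 16 reads in all, and 21.5 to 41.1 (median 30.9) at day 1, a log2 change of 5.56 ± 0.44 (adjusted p in limma 2.33e-09, 3.87 to 7.68 over the alternatives). Both were separated from day 0 in every library, but they were not a run, since the 4 genes between them, all on the minus strand, were not called. CC84DRAFT_1203503, the gene after CC84DRAFT_1162029 and on the opposite strand, rose by 2.77 ± 0.58 on the log2 scale (limma adjusted p 0.000790), and it is named for its position after its value was seen.

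CC84DRAFT_1218371, a single-exon gene of 324 bases on NW_017253365.1 (1813499 to 1813822, plus strand), had 8.25, 20.3 and 18.7 scaled CPM at day 0 and 472 to 2610.1 (median 1293) at day 1. CC84DRAFT_1217528 (NW_017253364.1, 2492914 to 2495215, plus strand, 4 exons) had 8.86, 19.0 and 24.97 and 783 to 1396 (median 976). Their log2 fold changes were 6.26 ± 1.06 and 5.93 ± 0.52 (adjusted p in limma 8.14e-05 and 9.69e-09). The shorter gene varied more among the day 1 libraries, but its lowest day 1 library still lay far above its highest day 0 library.

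STRG.4327 is a single-exon model of 4379 bases that the authors added to the annotation (NW_017253363.1, 3185014 to 3189392, plus strand). It had 3.96, 3.28 and 4.68 scaled CPM at day 0 and 156 to 294 (median 174) at day 1, a log2 change of 5.47 ± 0.55 (adjusted p in limma 7.97e-08). It ends 1 base before CC84DRAFT_719336 on the same strand, which went from 153 ± 67.5 to 612 ± 134 scaled CPM, or 2.09 ± 0.32 as a log2 change (adjusted p in limma 3.3e-05). How reads that cross from one gene to the other were counted was not looked at, and their part in these rises was not tested.

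**Figure D2:**
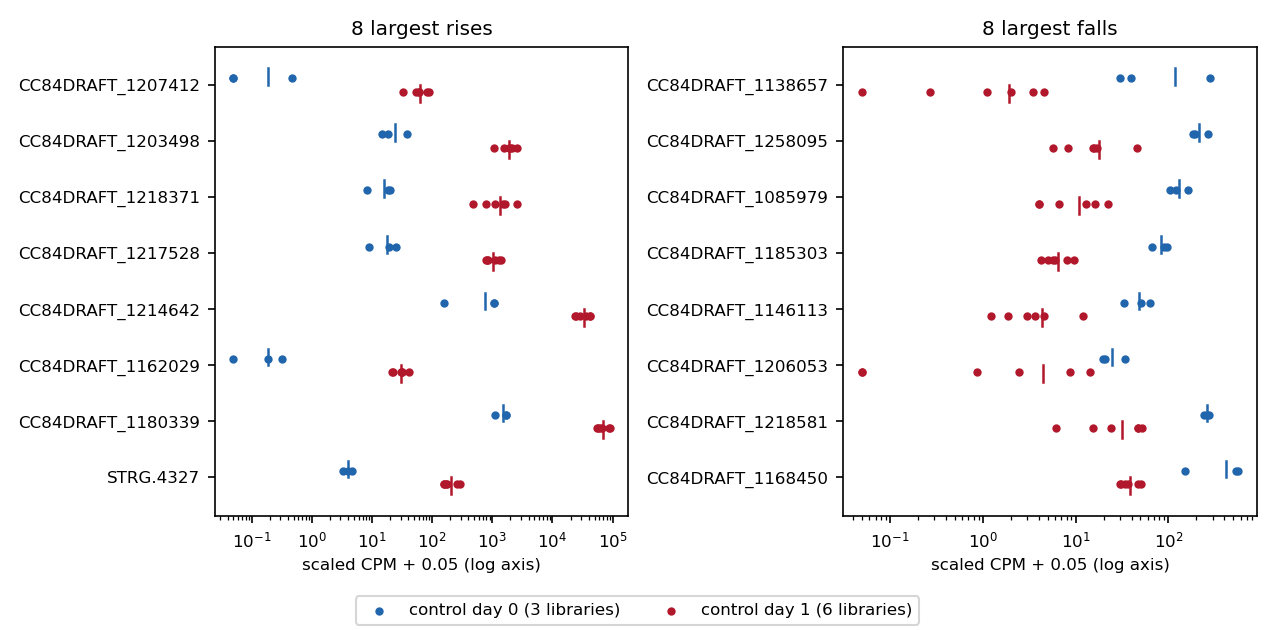
Scaled CPM plus 0.05 on a log axis for the 8 largest rises (left) and the 8 largest falls (right), with each point a library and each short vertical line the group mean. In every rise the 6 day 1 libraries lie to the right of the 3 day 0 libraries, and in every fall to the left, which was a condition of the choice.

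The most abundant rises were CC84DRAFT_1180339, CC84DRAFT_1214642, CC84DRAFT_1226245 and CC84DRAFT_666498, the 4 genes with the largest gain in scaled CPM. CC84DRAFT_1180339 (NW_017253371.1, 86589 to 87170, minus strand, a single exon of 582 bases) had 1097, 1684 and 1685 scaled CPM at day 0 and 55137 to 89218 (median 64027) at day 1, and its share of reads went from 0.174% ± 0.00543 to 5.74% ± 1.02. Its log2 fold change was 5.54 ± 1.16 (limma adjusted p 0.000763), with a wide error that all groups share and to which the controls of day 6 contribute (585 to 52950.2 scaled CPM). With the 9 libraries alone the log2 fold change was the same and the limma adjusted p was 6.32e-05. CC84DRAFT_1214642 (NW_017253362.1, 825524 to 827971, plus strand, 3 exons) went from 762 ± 522 scaled CPM (SD, n = 3) to 32796 ± 8447 (n = 6), a log2 change of 5.82 ± 0.72 (adjusted p in limma 1.59e-06). Its day 0 libraries had 159.5, 1060.2 and 1066, so replicate 1 was the low one, and without it the change was 4.91.

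CC84DRAFT_1226245 (NW_017253360.1, 2996894 to 2999243, minus strand, 3 exons) had 1824, 3759 and 4427 scaled CPM at day 0 and 19089 to 32056 (median 25239) at day 1. CC84DRAFT_666498 (NW_017253363.1, 2629812 to 2631440, plus strand, a single exon) had 1124, 1957 and 2347 and 16103 to 32755 (median 20911). Their log2 fold changes were 3.0 ± 0.72 and 3.71 ± 0.85 (adjusted p in limma 0.00272 and 0.00174), and in both the groups did not overlap. Per kilobase of exon, the day 1 mean was 119378 scaled CPM for CC84DRAFT_1180339, 14479.7 for CC84DRAFT_666498, 14124 for CC84DRAFT_1214642 and 11301 for CC84DRAFT_1226245. The first of these lay well above the other 3, which were of similar size.

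A few genes went from no or almost no reads to a level present in every day 1 library. Of 2150 genes with at most 3 reads in each day 0 library, 6 had at least 1 scaled CPM in each of the 6 day 1 libraries. Of 1724 genes with at most 3 reads in each day 1 library, 0 had at least 1 scaled CPM in each day 0 library. These counts rest on unlike conditions, since the days differ in number of libraries, 3 against 6. A level of 1 scaled CPM also takes more reads at day 0, where the TMM factors were higher. CC84DRAFT_519668 (NW_017253361.1, 5043420 to 5044406, single exon) had no read at day 0 and 2054 reads at day 1, 14.1 ± 5.19 scaled CPM. CC84DRAFT_1238425, farther along the same scaffold and strand (5061821 to 5063092, 2 exons), had no read and 743 reads, 5.13 ± 2.35 scaled CPM. The other 4 were CC84DRAFT_516921, CC84DRAFT_1222183, STRG.3964 and STRG.9874, with 0 to 2 reads over the day 0 libraries and 363 to 806 over the day 1 libraries. Their limma adjusted p-values were 4.31e-08 to 0.00306, in a test that the choice itself favours. At day 6 their mean levels in controls were 0.0678 to 1.18 scaled CPM, below those of day 1 in each of the 6, an order on which the choice by high day 1 levels bears. A count of 0 allows up to 3 reads per library, 0.0918 to 0.115 CPM over the 9 libraries, and covers counting error only.

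The 8 largest falls, chosen by the same rule, had log2 fold changes of −5.33 to −3.23, and the next outside the list had −3.19. All 8 had 2 to 6 exons. CC84DRAFT_1138657 (NW_017253361.1, 2845729 to 2847183, minus strand, 3 exons) had 279, 39.6 and 30.2 scaled CPM at day 0 and 0 to 4.56 (median 1.51) at day 1, a log2 change of −5.33 ± 0.65 (adjusted p in limma 1.5e-06). Day 0 replicate 1 was much the highest library of this gene, and the log2 fold change was −4.32 without it and −5.92 without replicate 3. CC84DRAFT_1085979 (NW_017253362.1, 1500921 to 1502882, minus strand, 6 exons) had 164, 103 and 121 at day 0 and 3.99 to 22.1 (median 9.69) at day 1, and CC84DRAFT_1185303 (NW_017253362.1, 1683970 to 1686497, plus strand, 2 exons) had 95.7, 88.7 and 65.8 and 4.15 to 9.45 (median 5.80). Their log2 fold changes were −3.75 ± 0.45 and −3.64 ± 0.30 (adjusted p in limma 9.22e-07 and 4.77e-09). In both the day 0 libraries lay close together and far above day 1.

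CC84DRAFT_1258095 (NW_017253363.1, 807913 to 809917, plus strand, 5 exons) had 195, 182 and 267 scaled CPM at day 0 and 5.59 to 45.7 (median 15.5) at day 1, where replicate 1 was the high library. CC84DRAFT_1146113 (NW_017253364.1, 2252018 to 2253550, minus strand, 3 exons) had 62.7, 50.1 and 32.8 and 1.16 to 11.9 (median 3.26), again highest in day 1 replicate 1. CC84DRAFT_1206053 (NW_017253365.1, 194955 to 196724, plus strand, 2 exons) had 33.9, 20.8 and 19.9 and 0 to 14.4 (median 1.62). For their level, these 3 varied more between the day 1 libraries than between those of day 0. Their log2 fold changes were −3.83 ± 0.42, −3.61 ± 0.59 and −3.45 ± 0.79 (adjusted p in limma 2.77e-07, 5.47e-05 and 0.00179). The call of CC84DRAFT_1206053 was lost in edgeR (adjusted p 0.104) and in DESeq2 (adjusted p 0.214), and the other 7 were called in each of the 20 alternative settings.

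CC84DRAFT_1218581 (NW_017253365.1, 2425698 to 2427907, minus strand, 4 exons) had 275, 244 and 259 scaled CPM at day 0 and 6.05 to 51.6 (median 35.6) at day 1, with replicate 1 the lowest. CC84DRAFT_1168450 (NW_017253371.1, 167162 to 168244, plus strand, 2 exons) had 149, 532 and 564 and 30.1 to 50.6 (median 35.4), and its day 0 replicate 1 was the low one. Their log2 fold changes were −3.33 ± 0.43 and −3.23 ± 0.39 (adjusted p in limma 2.85e-06 and 1.09e-06). The lowest day 0 library of the latter still lay above its highest day 1 library, and without it the log2 change was −3.85.

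The 4 genes that lost most scaled CPM were abundant at day 0 and stayed detectable at day 1. CC84DRAFT_1153115 (NW_017253369.1, 223628 to 225476, plus strand, 7 exons) had 1325, 6925 and 8616 scaled CPM at day 0 and 203 to 1776 (median 673) at day 1, a log2 change of −2.83 ± 0.69 (adjusted p in limma 0.00314). CC84DRAFT_1163532 (NW_017253363.1, 2053354 to 2054939, minus strand, 3 exons) had 315, 5375 and 6209 and 355 to 822 (median 562), a log2 change of −2.0 ± 0.61 (adjusted p in limma 0.0159). In both, day 0 replicate 1 was far below the other day 0 libraries and overlapped day 1. Without it CC84DRAFT_1153115 had a log2 change of −3.67. For CC84DRAFT_1163532 the call was lost without day 0 replicate 2 (−1.35, limma adjusted p 0.164), without replicate 3 (−1.24, 0.193) and with the 9 libraries alone (adjusted p 0.0577), and without day 0 replicate 1 the change was −3.39.

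CC84DRAFT_243126 (NW_017253370.1, 27454 to 28658, minus strand, 2 exons) had 4478, 3735 and 4163 scaled CPM at day 0 and 1756 to 3718 (median 2059) at day 1. CC84DRAFT_1139448 (NW_017253361.1, 4019465 to 4020666, plus strand, 3 exons) had 1109, 2194 and 2692 and 277 to 678 (median 356). Their log2 fold changes were −0.90 ± 0.27 and −2.24 ± 0.41 (adjusted p in limma 0.0130 and 0.000208), with no overlap of the groups. The call of CC84DRAFT_243126 was lost with the 9 libraries alone (adjusted p 0.0523), and its highest day 1 library was again replicate 1.

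The levels of these genes in the other groups are given side by side, since those comparisons share control libraries with this one. Over the 115 genes that rose at least 8-fold, the median of the group means was 8.17 scaled CPM at day 0, 106 at day 1 and 25.8 in controls of day 6. It was 47.5 with selenite at day 1 and 22.7 with selenite at day 6. Over the 14 genes that fell at least 8-fold the medians were 66.0 at day 0, 4.36 at day 1, 32.2 in controls of day 6, and 6.34 and 3.29 with selenite at days 1 and 6. Medians over all tested genes were 9.99, 9.91 and 11.9 in controls of days 0, 1 and 6. For both sets the control medians of day 6 thus lay between those of day 0 and day 1, and the choice of the genes by their day 1 values bears on that order.

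Individual genes differed in what followed. CC84DRAFT_1207412 had 0.993 ± 0.849 scaled CPM in controls of day 6 (n = 5) and 151 ± 39.3 with selenite at day 1 (n = 5), and CC84DRAFT_1217528 had 32.3 ± 28.05 and 281 ± 159.6. CC84DRAFT_1214642 had 765 ± 677 and 3314 ± 1142, against 32796 ± 8447 in controls of day 1. The high control level of day 1 in this last gene stood above every library of the other 4 groups. CC84DRAFT_1180339 had 24779 ± 23623 in controls of day 6, where libraries ran from 585 to 52950.2, and 178461 ± 39246 with selenite at day 1. CC84DRAFT_1218371 had 246 ± 225, with libraries from 3.87 to 478, and 1548 ± 467 with selenite at day 6 (n = 4). The controls of day 6 were thus widely spread in both of these genes. Among the falls, CC84DRAFT_1138657 had 583 ± 381 in controls of day 6 and CC84DRAFT_1218581 had 485 ± 186, above every day 0 library of the latter, while both were low with selenite at day 6 (3.90 ± 2.63 and 43.2 ± 5.21).

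**Figure D3:**
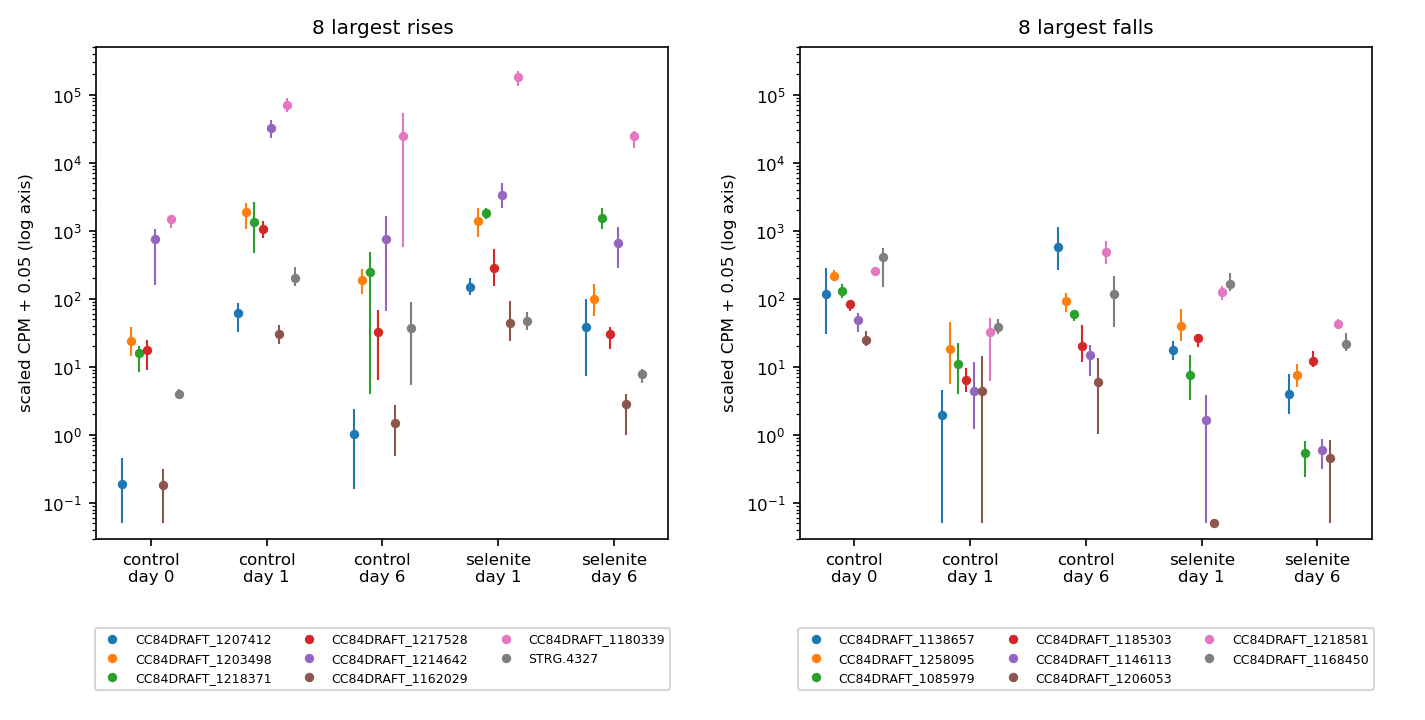
Group means of scaled CPM plus 0.05 (log axis) for the 8 largest rises (left) and 8 largest falls (right) in the 5 groups of the study, with lines from the lowest to the highest library. Every rise has a higher mean at day 1 than at day 0 in controls, CC84DRAFT_1214642 is higher in controls of day 1 than in the other 4 groups, and CC84DRAFT_1138657 and CC84DRAFT_1218581 are higher in controls of day 6 than at day 1.

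The comparison of selenite with control at day 6 shares no library with day 1 against day 0, although both take their spread from the same fit. Of the 2053 genes higher at day 1, 747 were called higher with selenite at day 6, 36.4% of the first list and 20.2% of the second, and 455 (22.2% and 15.4%) were called lower. Over all tested genes 27.1% were called higher and 21.5% lower with selenite at day 6. Of the 1749 genes lower at day 1, 668 (38.2% and 22.7%) were lower and 263 (15.0% and 7.10%) higher with selenite at day 6. Same-direction shares thus lay above the share over all genes in both lists, while the opposite-direction share was near it for rises and below it for falls. No test of this overlap was made, and it was not split by expression level.

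A gene called in one direction had a neighbour called in that direction somewhat more often than tested genes in general. A neighbour called in the same direction, on either strand, was present for 35.3% of the 2053 rises and 33.3% of the 1749 falls, while 25.4% of all tested genes, whatever their own call, had at least 1 neighbour called higher and 22.3% at least 1 called lower. Among genes not themselves called that way the shares were 23.6% and 20.7%. Over all tested genes 15.0% were called higher and 12.8% lower. No test of these shares was made. There were 60 runs of at least 3 consecutive genes called higher, with 211 genes, the longest of 7, and 47 runs called lower, with 152 genes, the longest of 6. Runs on a single strand were shorter and fewer, with 55 genes in runs of rises and 21 in runs of falls. The count of genes in runs was 184 and 121 with edgeR calls, and 164 and 104 without day 0 replicate 1 and day 1 replicate 1. Without these 2 libraries the neighbour shares were 31.6% of rises, against 21.5% of all tested genes, and 28.5% of falls, against 17.9%.

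The longest run of rises held 7 genes over 25701 bases of NW_017253363.1 (923381 to 949081), with log2 fold changes of 0.65 to 2.81. Its largest rise was CC84DRAFT_1195287, of 5 exons, with 105, 76.2 and 89.1 scaled CPM at day 0 and 481 to 862 (median 636) at day 1, a log2 fold change of 2.81 ± 0.25 with a limma adjusted p of 9.69e-09. CC84DRAFT_630412, next to it on the opposite strand, had 15.3, 8.86 and 12.8 and 28.04 to 35.6 (median 32.7), a log2 fold change of 1.39 ± 0.23 with a limma adjusted p of 7.83e-05. These 2 and their 5 neighbours lie on both strands, and all were called higher, which is how a run is defined. The groups did not overlap in 6 of the 7, as in 1727 of all 2053 called rises. With library size alone all 7 log2 fold changes stayed above 0, but CC84DRAFT_1195287 and CC84DRAFT_630412 were the only members still called. The smallest rise, CC84DRAFT_1241704 (0.65 ± 0.24, adjusted p 0.0454), lost its call in 12 of 20 alternatives, and it overlaps the start of CC84DRAFT_630390 on the other strand.

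The second run of rises held 6 genes over 12665 bases of NW_017253362.1 (1990866 to 2003530), 5 of them on the minus strand, with log2 fold changes of 1.21 to 5.02. CC84DRAFT_1239841 (3 exons) had 11.2, 7.36 and 5.02 scaled CPM at day 0 and 139 to 411 (median 248) at day 1, and CC84DRAFT_1194726 (4 exons) had 21.5, 13.3 and 8.495 and 95.1 to 317 (median 226). CC84DRAFT_1203915 had 25.2, 5.86 and 1.79 and 24.9 to 95.6 (median 73.5), and CC84DRAFT_1162499, the member on the plus strand, had 126, 70.3 and 61.5 and 104 to 317 (median 214). The groups did not overlap in the first 2 and overlapped in the others, with day 0 replicate 1 the highest of its day in all 4. Log2 fold changes were 5.02 ± 0.53, 3.84 ± 0.34, 3.12 ± 0.54 and 1.29 ± 0.33 (adjusted p in limma 1.75e-07, 1.13e-08, 0.000114 and 0.00468). For CC84DRAFT_1203915 the change was 4.04 without day 0 replicate 1 and 2.30 without day 0 replicate 3. Day 1 replicate 6 was the lowest day 1 library for each of these 4. CC84DRAFT_1141420 rose by 1.72 ± 0.41 and CC84DRAFT_1203914 by 1.21 ± 0.40 on the log2 scale (limma adjusted p 0.00267 and 0.0243). The latter had no read at day 0 and 0 to 2.17 scaled CPM at day 1, and its call was lost in 6 of 19 alternatives.

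In the same 6 genes the level with selenite was low at both times. Mean levels were 0.0423 to 5.65 scaled CPM with selenite at day 1 and 0 to 9.45 at day 6. In controls of day 6 they were 0.210 to 249. CC84DRAFT_1162499 and CC84DRAFT_1203915 had 249 ± 48.2 and 70.1 ± 26.5 in controls of day 6 against 214 ± 79.4 and 68.8 ± 29.3 at day 1, within the spread of the libraries, while CC84DRAFT_1239841 had 83.5 ± 31.4 against 275 ± 105.

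The longest run of falls held 6 genes over 15461 bases of NW_017253363.1 (1459491 to 1474951), with log2 fold changes of −1.84 to −0.51. CC84DRAFT_1163333, a single-exon member, had 16.7, 15.9 and 18.6 scaled CPM at day 0 and 5.99 to 9.20 (median 6.75) at day 1, a log2 fold change of −1.19 ± 0.25 with a limma adjusted p of 0.000710, and CC84DRAFT_1204689 had 57.9, 62.6 and 56.6 and 35.6 to 44.96 (median 41.6), a log2 fold change of −0.51 ± 0.16 with a limma adjusted p of 0.0194. The other members were low or overlapped between the days: CC84DRAFT_1089994 had 2.43, 1.05 and 0.860 at day 0 and no read in 5 of 6 day 1 libraries, and its fold rests on the pseudocount. A second run, of 5 falls over 10806 bases (805569 to 816374), lies on the same scaffold and holds CC84DRAFT_1258095, described above. Its first gene, CC84DRAFT_1163148, had 28.1, 37.9 and 32.4 and 8.56 to 12.5 (median 10.1), a log2 fold change of −1.60 ± 0.22 with a limma adjusted p of 8.99e-06, and the other 3 had log2 fold changes of −1.32 to −0.67. In all 5 genes the groups did not overlap, as in 1312 of all 1749 called falls. Of the 24 genes in the 4 runs, 11 were called in every alternative.

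**Figure D4:**
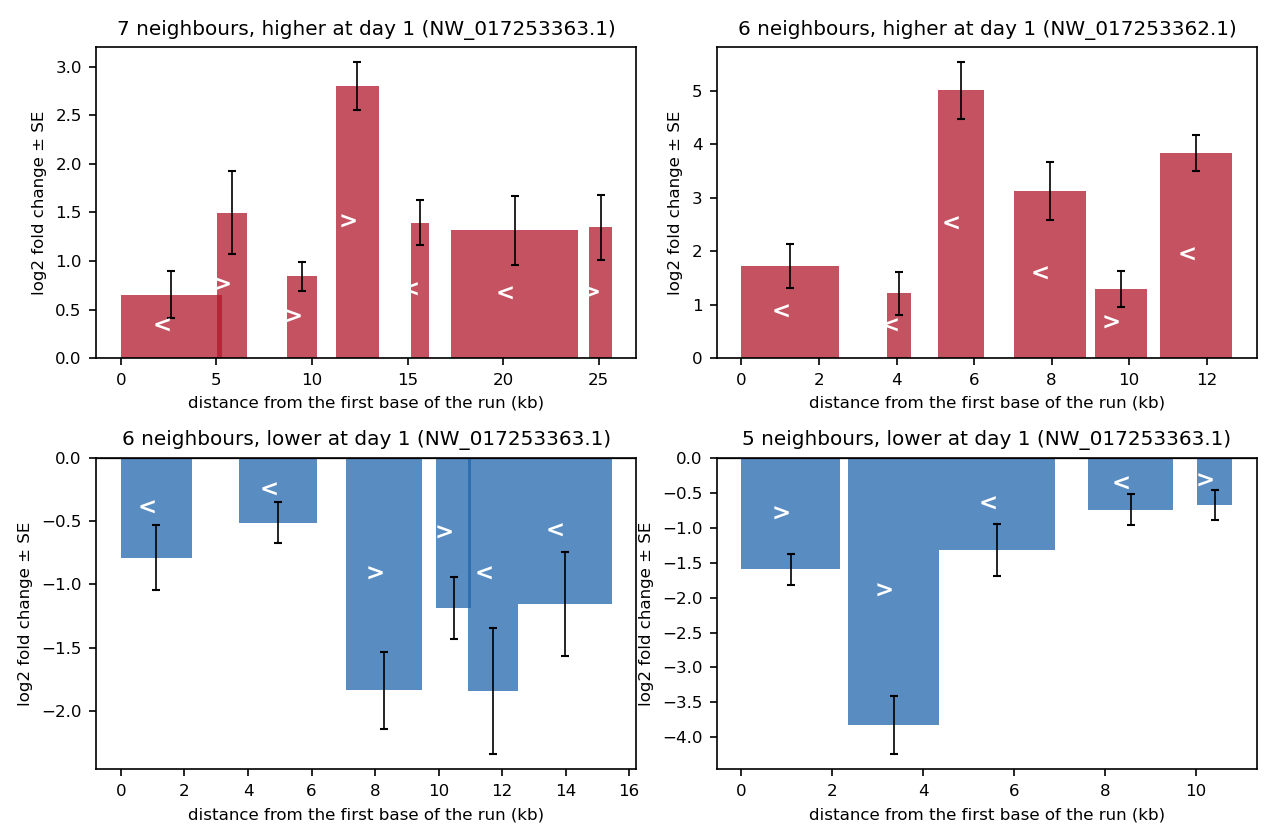
Log2 fold change from day 0 to day 1 (bars, with SE) of the genes in the 2 longest runs of rises (upper row) and of falls (lower row), drawn to scale along the scaffold from the first base of each run. Arrow heads mark the strand, and the bars reach 2.81 and 5.02 in the runs of rises and −1.84 and −3.83 in the runs of falls.

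Orientation and distance went with how neighbours changed. Among 12572 adjacent pairs of tested genes, both were called in 1074, and in 728 of these (67.8%) the direction was the same. For divergent pairs, which point away from each other, it was the same in 250 of 294 (85.0%). The share was 63.8% (324 of 508) for pairs on 1 strand and 56.6% (154 of 272) for pairs that point at each other. It was 74.8% with fewer than 500 bases between the genes and 47.7% with 2000 or more. Divergent pairs under 500 bases apart had 113 of 123 (91.9%) in the same direction, and those 2000 or more bases apart had 15 of 28. Across genes, which are not independent replicates, Pearson's r of the 2 log2 fold changes was 0.30 for all divergent pairs, 0.16 for pairs on 1 strand and 0.06 for convergent pairs. Counting used strand, per the file headers. Without day 0 replicate 1 and day 1 replicate 1, 526 of 740 pairs (71.1%) and 180 of 208 divergent pairs (86.5%) had the same direction. The members of these pairs were called in this contrast, and no test of these shares was made.

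**Figure D5:**
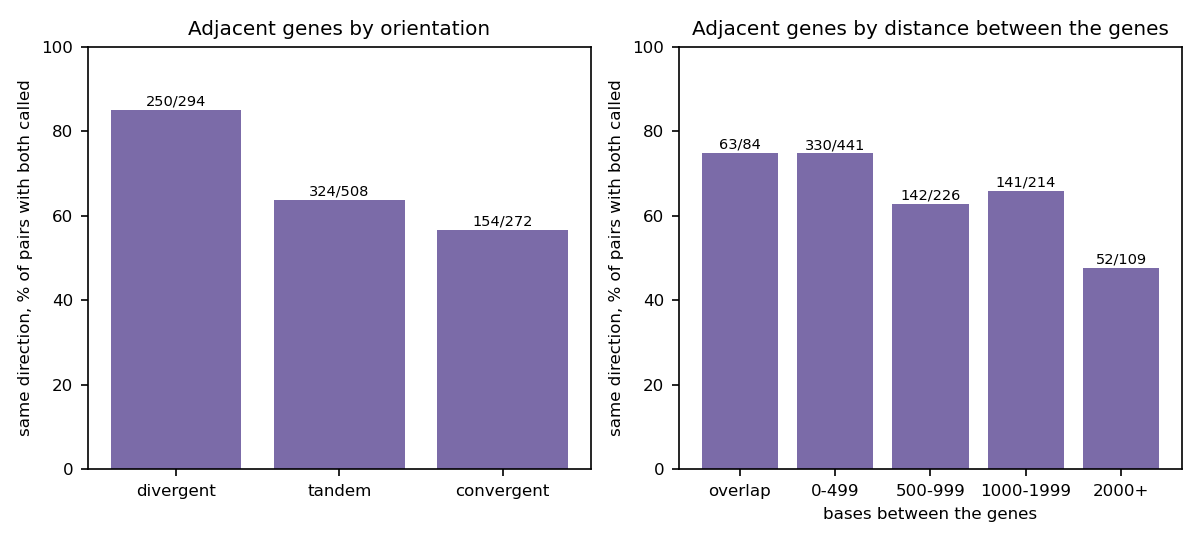
Share of adjacent pairs with both genes called that changed in the same direction (y axis, percent from 0), by orientation (left) and by bases between the genes (right), with counts above the bars. Divergent pairs reach 85.0%, and the share is 47.7% for genes 2000 or more bases apart.

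The 3 divergent pairs with the largest rise in both members are given as examples, by a rule added after the pair counts were seen. Their shared direction was a condition of the choice, which also favours separated groups and small p-values. CC84DRAFT_751447 and CC84DRAFT_1217430 start 426 bases apart on NW_017253364.1. The former had 78.7, 45.4 and 52.3 scaled CPM at day 0 and 582 to 923 at day 1, a log2 fold change of 3.72 ± 0.37, and the latter had 2.79, 9.21 and 12.5 and 97.3 to 200.1, a log2 fold change of 4.39 ± 0.48. CC84DRAFT_1166599 and CC84DRAFT_1178377, 74 bases apart on NW_017253367.1, went from 69.9, 192 and 285 at day 0 to a range of 1308 to 1802 scaled CPM and from 3.35, 13.6 and 26.9 to a range of 69.0 to 127, with log2 fold changes of 3.29 ± 0.32 and 3.11 ± 0.36. In all 4 genes every day 1 library lay above every day 0 library, with limma adjusted p-values of 4.02e-08 to 5.03e-07. The remaining pair was CC84DRAFT_1180339 with STRG.8302, 326 bases apart, where STRG.8302 had 1.71, 2.55 and 6.05 at day 0 and 34.2 to 85.5 at day 1, a log2 fold change of 4.12 ± 0.71 with a limma adjusted p of 9.73e-05. With selenite at day 1 STRG.8302 had a mean of 38.2 against 63.5 in controls, while CC84DRAFT_1180339 had 178461 against 69478. Whether reads of one gene were counted in the other was not tested.

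Among divergent falls, CC84DRAFT_1165529 and CC84DRAFT_1165530, 316 bases apart on NW_017253365.1, had 137, 77.7 and 66.7 and 79.9, 51.3 and 64.2 scaled CPM at day 0 and 5.73 to 67.7 and 9.63 to 83.5 at day 1. The log2 fold changes were −2.62 ± 0.47 and −1.67 ± 0.44 (adjusted p in limma 0.000178 and 0.00568). Day 1 replicate 1 was the highest day 1 library of both, at 67.7 and 83.5, within or above the day 0 range. The other 5 day 1 libraries lay below every day 0 library of both genes.

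The shares called are described by structure, place and level. Of 3339 tested single-exon genes 14.4% were higher and 9.40% lower, and of 1712 genes with at least 5 exons 13.3% were higher and 16.5% lower, against 15.0% and 12.8% of all tested genes. Gene models with STRG names (278 tested) had 15.8% higher and 6.83% lower. Genes within 30 kb of a scaffold end, with the last gene taken as the end (330 tested), had 17.3% higher and 6.97% lower. Falls were thus fewer in these last 2 lists than over all genes, as they also were in single-exon genes. With library size alone, where 7.38% and 30.4% of all genes were called, these 2 lists had 10.8% higher and 17.3% lower, and 10.3% and 19.4%. The lists were not matched for level, with which the shares called also varied, as given below. No test of these lists was made. Of 66 tested tRNA genes, a list added later, 1 was higher and 1 lower, in libraries made from messenger RNA.

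Genes were also split into 4 equal groups by their mean over all 23 libraries. In the highest group 28.7% were higher and 11.1% lower. In the next groups downwards the shares were 17.0% and 16.7%, then 10.2% and 17.5%, and in the lowest 4.21% and 5.88%. With library size alone, falls outnumbered rises in each of these groups: from the highest group to the lowest, 14.2%, 7.05%, 5.21% and 3.04% were higher and 34.2%, 39.9%, 35.04% and 12.6% were lower. The mean holds the libraries compared here, so a change itself can move a gene between groups. With groups made from the 14 libraries outside the comparison, an alternative chosen after seeing the data, the highest group had 27.3% higher and 11.2% lower and the lowest 5.44% and 6.17%. Of 4611 genes in the authors' deposited time-course table, chosen by the authors on these samples and so no independent evidence, 26.9% were higher and 19.2% lower. On the 10 scaffolds with over 500 tested genes the shares were 13.5% to 17.0% higher and 10.4% to 14.6% lower.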

How the data were processed

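RNA sequencing reads per gene were measured in 23 libraries of Paraphaeosphaeria sporulosa, made with a stranded kit for messenger RNA per the labels. The submitters' processing notes name Trimmomatic 0.39, the aligner STAR 2.7.1a, the counter featureCounts (Subread 2.0.6), edgeR 3.36.0 and R 4.1.0. A genome build was not stated in the labels or headers used here. Counting used strand and paired reads, per the file headers. The authors deposited CPM, reads scaled to a common total in genes with no composition factor. Whole reads could be recovered for 100% of 348772 values, with a tolerance of 1e-06 reads. Gene positions and other gene features (exon number and length) were read from the deposited count table. The deposited time-course table with its R-squared score, made by the authors with maSigPro, gave only a list of 4611 genes.

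Genes were kept by filterByExpr (minimum count 10, minimum total 15), which left out 1488 of 15164. CPM were divided by TMM factors (edgeR 4.0.16), and log2(value + 0.5) of all 23 libraries was fitted in limma 3.58.1 (R 4.3.3, trended variance) with 5 group means; p-values were two-sided and adjusted over 13676 genes by Benjamini-Hochberg, with a threshold of 0.05. Fold changes are on that scale and understate changes of genes with few reads. The fit was run on simulated data with the same relative spread for every gene, no library apart and no planned shift in composition. That simulation therefore does not cover these features of the present data. Alternatives were other scalings, pseudocounts of 0.1 and 2, other filters, edgeR and DESeq2 1.42.0 on the recovered reads, the 9 libraries alone, a replicate block, a test against 1.5-fold and leaving out libraries. Library summaries used exact permutation tests (SciPy 1.17.1).

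Named genes were, among called genes with a mean of at least 10 scaled CPM in the higher group, no overlap and 1 direction in 3 scalings, the 8 largest changes each way; among called genes with 1 direction in 3 scalings, the 4 largest gains and losses in mean scaled CPM; and the 2 longest runs of neighbours each way. The comparison, lists and rules were chosen with earlier results of these data known. Locus tags matched the RefSeq gene table of assembly Parsp1 for 14839 of 14844 genes, which gives no product names. Lists planned from protein and promoter sequences were not run, since such sequences were not used here. Apart from the time-course table, the authors' deposited tables of selenite against control were not used here.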

Additional observations from a re-analysis of the deposited data

Results flagged for a closer look

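In 50 groups of values, each over the 6 day 1 libraries, 5 held a single library far from the others. Chance gives about 1 in 20 for independent groups, but these all shared the same libraries. The 3 day 0 libraries were too few for this test. Day 1 replicate 1 was the one apart in 4 of them. It had 45.7 scaled CPM of CC84DRAFT_1258095 against 5.59 to 17.1 in the other 5 libraries, 11.9 of CC84DRAFT_1146113 against 1.16 to 4.51, and 3718 of CC84DRAFT_243126 against 1756 to 2299, each nearer to day 0. It also had 69.4 of CC84DRAFT_630334 against 91.6 to 99.1. Day 1 replicate 6 had 0.0895 scaled CPM of CC84DRAFT_1089994, or 2 reads, while the other 5 libraries had no read. That is below the floor of 3 reads, and against 5 libraries without a read any count would be flagged. Over all tested genes, 2432 lay at least 2-fold from the median of the other day 1 libraries in replicate 1, against 872 to 1548 in the others.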

How the results depend on the processing

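The number of genes called stayed within 1.5 times of 3802 in 20 of 21 alternatives, with 5172 for library size alone, 3565 for edgeR, 4188 for DESeq2 and 3649 for the 9 libraries alone. The exception was a test against a change of 1.5-fold, which called 1087 genes (709 higher, 378 lower). The share of calls that were higher, 54.0%, turned to 19.5% with library size alone. Leaving out 1 library at a time gave 2846 to 4022 calls, 2235 to 2823 of them at least 2-fold, and 52.6% to 57.4% of calls higher; the fewest calls came without day 0 replicate 2. Over the same settings the day 1 minus day 0 difference was 6.08 to 10.2 percentage points for the top 10 genes, 7.48 to 12.9 for the top 100, −739.5 to −406 for genes at 1 CPM or more, 26.7 to 166 for genes without a read and −557463 to 745352 for total reads. With the top 50 genes in place of the top 100 the difference was 10.7 and its call did not change (exact permutation, adjusted p 0.0595). With genes counted at 5 CPM or more in place of 1 CPM the difference was −831 genes. The adjusted p was then 0.0397 (exact permutation) for that summary, and also for the top 10 genes (8.70 percentage points) and the top 100 (10.8), whose values had not moved, since 3 of 5 summaries then had the smallest p. Runs on a single strand held 55 rises and 21 falls against 211 and 152 on both strands, by construction. Of the 45 named genes, 29 were called in every alternative, 16 lost their call in at least 1, and 0 turned direction. For all but the members of runs, the same direction in 3 scalings was a condition of the choice, so the other scalings could not turn them.

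Replicate numbers were not shown to pair the samples: the correlation of deviations from the group means, across genes, was 0.331, 0.0189 and 0.0578 for numbers 1, 2 and 3. A fit with a replicate block called 3673 genes, and only day 0 replicate 1 correlated best with its own number. With 3 day 0 libraries and 1 of them apart, changes that rest on that day have little replication, and genes near the floor of 3 reads have folds set by the pseudocount.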
